A study of Gallus gallus with 21 samples.

Results

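The genes described here mark macrophages and lymphocytes. The list held 38 gene symbols, chosen for their known cell type but with earlier results of these samples known, and a row of a deposited table was taken as a member where its gene symbol was on the list. In the first experiment 29 of the 38 listed genes were found among 13815 genes, and in the second 31 were found among 23789. CD8A and IKZF1 were found in the second experiment alone, and CD74, CD4, IL2RG, CIITA, CORO1A, VAV1 and CD53 were not analysed here. The lowest mean of any gene listed in the first experiment was 1.00 TPM, while the second listed 4855 genes at 0 in every library. Genes with a lower mean are thus missing from the first table, also from its shares of all genes. Whether CD8A and IKZF1 are missing for that reason is unknown. All members found passed the filter on low values. Of these, 22 of 29 and 27 of 31 averaged at least 1 TPM in every group. DOCK2, LPXN, MRC1, PTPRC, SYK, TIMD4 and ZAP70 averaged less in at least 1 group of the first experiment, and CD8A, IKZF1, MRC1 and SYK in at least 1 group of the second, so these passed through the groups where they were higher.

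The RNA came from the contour feather follicles of white leghorn cocks, all 1 year old and untreated. The first experiment dissected the follicle in early growth into 4 parts with 3 libraries each: central pulp, peripheral pulp, dermal sheath and dermal papilla. The second followed the pulp through early growth, late growth and near rest, with 2 libraries each, and added 3 libraries of the apical dermal papilla at rest. The dermal papilla is the mesenchymal body at the base of the follicle, the sheath surrounds it, and the pulp is the vascular core of the growing feather. No label ties the replicates to separate birds, so the p-values measure the spread between these libraries, which may be technical. Levels are TPM, a transcript share corrected for transcript length and scaled to a fixed total in each library. TPM keeps no depth, so the sequencing depth is unknown. Differences are given as log2 fold changes on the log2(TPM + 1) scale with their standard error, which understates the change of low genes, and were called at an adjusted p under 0.05 from limma with Benjamini-Hochberg adjustment over all genes tested. The 2 tables were normalized separately, and every test stayed within 1 table.

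Macrophages are phagocytes that live in most tissues, depend on signalling through the receptor CSF1R, clear dying cells through scavenger and phosphatidylserine receptors, and are a main source of the complement protein C1q. T cells recognise antigen through a receptor whose signal passes through the CD3 chains and the kinases LCK and ZAP70. PTPRC, also called CD45, is carried by nearly all leukocytes of either kind. Most of these roles were worked out in mammals. In the chicken, red cells and thrombocytes keep their nuclei, and heterophils take the place of mammalian neutrophils. In whole tissue, fewer cells of a type and less RNA per cell cannot be told apart.

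Markers of other cell types differed between the parts. Summed over 10 heterophil genes, the level lay between 514 and 840.0 TPM in central pulp, 2.04 and 5.53 in peripheral pulp, 9.00 and 13.6 in sheath and 1.93 and 4.00 in papilla. The defensin AvBD2 and the cathelicidins CATHL1, CATHL2 and CATHL3 were listed at 0 in all libraries of peripheral pulp, sheath and papilla. Summed over 10 keratinocyte genes it lay between 88.7 and 169 TPM in central pulp, 486 and 1691 in peripheral pulp, 6454 and 9833 in sheath and 259.9 and 470.1 in papilla. Summed over 6 red cell genes it was 1933 to 2717 TPM in central pulp, 1212 to 3165 in peripheral pulp, 4076 to 4608 in sheath and 1140.0 to 1398 in papilla. Each library held between 12569 and 13451 genes at 1 TPM or more. Across the stages of the second experiment the keratinocyte sum was 2814 to 13562 TPM in pulp near rest, where replicate 1 was the high library.

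In the growing follicle, leukocyte genes were highest in the central pulp. The order of the group means was central pulp, peripheral pulp, sheath, papilla for 21 of 29 members, and central pulp was the highest group for 28 of 29. MRC1, the macrophage mannose receptor, was the exception and was highest in the sheath. How often all genes had this order, or had central pulp as the highest group, was not counted. Summed over all members, they made up 0.234 to 0.271 percent of all TPM in the central pulp libraries, 0.166 to 0.191 in peripheral pulp, 0.0606 to 0.0638 in sheath and 0.0382 to 0.0426 in papilla, and the 4 ranges did not overlap. Over all 4 parts, 28 of 29 members differed by the moderated F test, the exception being LPXN, a focal adhesion adaptor of leukocytes. Of all genes tested, 76.3% differed.

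The complement protein C1q is assembled from the products of C1QA, C1QB and C1QC. C1QA stood at 254, 238 and 227 TPM in the central pulp libraries, 186, 239 and 176 in peripheral pulp, 68.0, 59.8 and 57.1 in sheath and 41.4, 38.3 and 39.5 in papilla. C1QC stood at 252, 250.2 and 230.2 TPM in central pulp, 183, 241 and 190.1 in peripheral pulp, 69.5, 51.6 and 52.2 in sheath and 36.4, 40.9 and 38.6 in papilla. For both genes the 2 pulp parts overlapped, while every pulp library was above every sheath library, and every sheath library above every papilla library. Central pulp exceeded papilla by 2.56 ± 0.11 for C1QA and by 2.63 ± 0.13 for C1QC (log2 fold changes, adjusted p = 6.4e-09 and 1.5e-08). None of the 3 subunit genes was called between central and peripheral pulp, and the adjusted p was 0.095 for C1QA.

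CSF1R, the receptor through which macrophages survive and proliferate, stood at 169, 243 and 189.6 TPM in central pulp, 143, 164 and 159 in peripheral pulp, 66.0, 65.6 and 65.5 in sheath and 38.1, 49.0 and 51.0 in papilla. The 4 parts did not overlap, and central pulp exceeded papilla by 2.10 ± 0.13 (adjusted p = 1.3e-07), but the difference between the 2 pulp parts of 0.35 ± 0.13 was not called (adjusted p = 0.075). LY86 encodes MD-1, a secreted partner of a Toll-like receptor relative, and had the highest mean of all members in both pulp parts. It stood at 399, 633 and 485 TPM in central pulp, 306, 278 and 230.3 in peripheral pulp, 49.6, 54.2 and 48.8 in sheath and 31.9, 42.1 and 41.1 in papilla. The pulp parts did not overlap with each other or with the other parts, and central pulp was higher than peripheral pulp by 0.88 ± 0.16 and than papilla by 3.67 ± 0.16 (adjusted p = 0.0027 and 9.0e-09).

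MARCO, a scavenger receptor that binds bacteria and particles, was far higher in the pulp than in the other parts. Its level was 78.5, 78.0 and 70.7 TPM in central pulp, 56.0, 51.4 and 54.8 in peripheral pulp, 4.91, 2.90 and 7.08 in sheath and 6.31, 6.47 and 4.44 in papilla. The sheath and papilla libraries overlapped with each other and lay far below every pulp library, by 3.75 ± 0.22 for central pulp against sheath and 3.52 ± 0.22 for central pulp against papilla (adjusted p = 5.7e-08 and 1.0e-07). TIMD4, a receptor for phosphatidylserine on dying cells, was weakly expressed, at 6.17, 7.84 and 6.40 TPM in central pulp, 4.20, 2.24 and 3.61 in peripheral pulp, 1.69, 1.16 and 2.18 in sheath and 0.409, 1.20 and 1.25 in papilla. Its higher level in central than in peripheral pulp (0.86 ± 0.25, adjusted p = 0.028) was no longer called with a pseudocount of 0.1 or without any 1 of 3 libraries, central pulp replicate 2 or 3 or peripheral pulp replicate 2, where the adjusted p reached 0.11. The Toll-like receptor gene TLR4, the anaphylatoxin receptor gene C3AR1 and CYBB, the catalytic chain of the phagocyte oxidase, were likewise higher in both pulp parts than in papilla. Their central pulp means were 25.1 ± 4.72, 24.3 ± 4.89 and 23.4 ± 2.05 TPM, against 2.67 ± 0.559, 6.48 ± 0.875 and 3.30 ± 0.251 TPM in papilla (mean ± SD, n = 3).

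**Figure D1:**
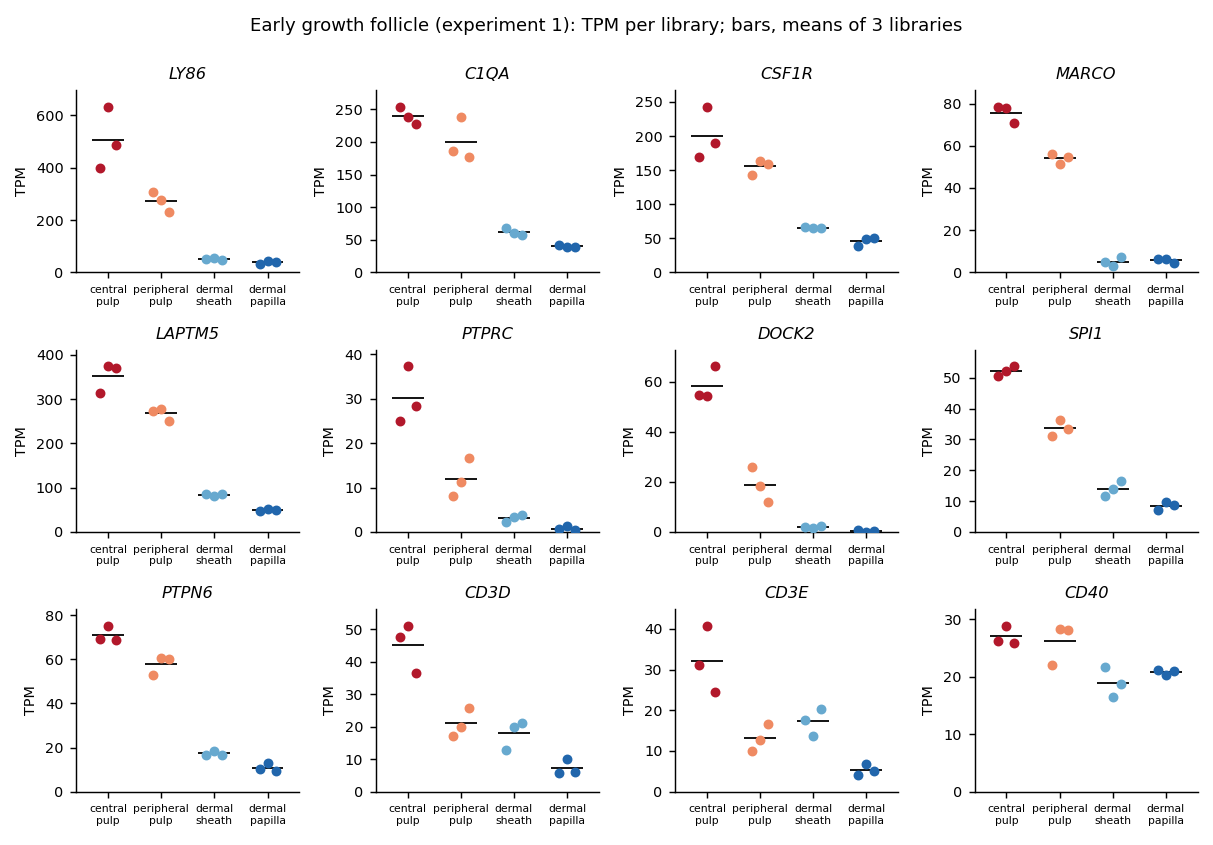
Level in TPM (linear axes from 0) of 12 leukocyte genes in each library of the first experiment, with central pulp, peripheral pulp, dermal sheath and dermal papilla from left to right; points are libraries and bars are group means. For LAPTM5 the central pulp libraries lay between 314 and 374 TPM and the papilla libraries between 48.1 and 52.5 TPM.

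The genes carried by leukocytes in general followed the same order. LAPTM5, a lysosomal membrane protein of blood cells, stood at 314, 374 and 371 TPM in central pulp, 274, 278 and 250.3 in peripheral pulp, 86.7, 81.4 and 84.9 in sheath and 48.1, 52.5 and 50.7 in papilla. LCP1, the actin-bundling protein L-plastin, stood at 83.2, 85.9 and 86.4 TPM in central pulp, 56.0, 65.6 and 55.1 in peripheral pulp, 15.9, 17.7 and 18.7 in sheath and 9.99, 14.2 and 10.5 in papilla. The parts overlapped for neither gene, and central pulp exceeded papilla by 2.78 ± 0.08 for LAPTM5 and 2.79 ± 0.13 for LCP1 (adjusted p = 3.2e-10 and 8.5e-09). RAC2, a small GTPase of blood cells, was at 53.0, 50.1 and 41.8 TPM in central pulp, 24.1, 30.0 and 34.6 in peripheral pulp, 19.4, 16.9 and 18.8 in sheath and 8.96, 8.81 and 8.55 in papilla. ITGB2, the common chain of the leukocyte integrins, was at 45.3, 46.1 and 38.5 TPM in central pulp, 27.6, 32.6 and 36.1 in peripheral pulp, 13.4, 14.1 and 14.1 in sheath and 9.50, 10.7 and 9.73 in papilla. Again no library of 1 part reached into the range of another.

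Among the members, the largest log2 differences between central pulp and papilla belonged to DOCK2, which activates Rac in migrating leukocytes, and to PTPRC. DOCK2 was at 54.6, 54.4 and 66.1 TPM in central pulp, 25.9, 18.4 and 11.8 in peripheral pulp and 1.95, 1.71 and 2.28 in sheath. In papilla it was at 0.594 and 0.298 TPM in replicates 1 and 3 and listed at 0 in replicate 2. The difference of central pulp from papilla was 5.54 ± 0.26 and that from sheath 4.31 ± 0.26 (adjusted p = 1.1e-08 and 7.0e-08). PTPRC was at 25.0, 37.3 and 28.4 TPM in central pulp, 8.07, 11.3 and 16.6 in peripheral pulp, 2.19, 3.34 and 3.80 in sheath and 0.580, 1.31 and 0.438 in papilla, again without overlap. Central pulp exceeded peripheral pulp by 1.30 ± 0.28 and papilla by 4.15 ± 0.28 (adjusted p = 0.0058 and 2.0e-07). LPXN ranged from 0.376 to 3.76 TPM over the 12 libraries, overlapped between all pairs of parts except peripheral pulp and papilla and was called in no comparison of either experiment.

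Among the signalling genes, PTPN6, the phosphatase SHP-1 of blood cells, stood at 69.2, 75.3 and 68.7 TPM in central pulp, 52.8, 60.8 and 60.4 in peripheral pulp, 16.7, 18.5 and 16.8 in sheath and 10.1, 12.8 and 9.12 in papilla. LCP2, the adaptor SLP-76, stood at 20.2, 21.8 and 20.0 TPM in central pulp, 13.5, 13.4 and 12.9 in peripheral pulp, 5.00, 5.74 and 6.50 in sheath and 2.03, 2.29 and 1.98 in papilla. BTK, a kinase of B cells and myeloid cells, stood at 16.6, 14.2 and 18.4 TPM in central pulp, 10.8, 12.3 and 12.7 in peripheral pulp, 6.21, 4.72 and 3.20 in sheath and 2.32, 1.67 and 0.757 in papilla. The parts overlapped for none of these genes. The kinase SYK averaged 3.52 ± 0.750 TPM in central pulp and 0.327 ± 0.228 TPM in papilla (mean ± SD, n = 3), and the peripheral pulp libraries were spread widely, at 0.772, 4.22 and 1.45 TPM.

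SPI1 and IRF8 encode transcription factors that direct myeloid development. SPI1 (PU.1) was at 50.6, 52.2 and 53.7 TPM in central pulp, 31.0, 36.3 and 33.4 in peripheral pulp, 11.7, 14.0 and 16.4 in sheath and 6.98, 9.80 and 8.81 in papilla, with no overlap between any 2 parts. IRF8 was at 90.3, 78.0 and 83.1 TPM in central pulp, 58.9, 77.1 and 75.3 in peripheral pulp, 37.7, 36.3 and 37.1 in sheath and 40.2, 40.3 and 35.9 in papilla. As a ratio of highest to lowest library, the range of IRF8 was narrower than that of SPI1, and its sheath and papilla libraries overlapped. Central pulp exceeded papilla by 2.49 ± 0.14 for SPI1 and 1.09 ± 0.10 for IRF8 (adjusted p = 4.4e-08 and 3.5e-06). Within a library, the IRF8 level was 149.6 to 178 percent of the SPI1 level in central pulp and 407 to 576 percent in papilla.

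The CD3 chains were higher in central pulp than in any other part. CD3D was at 47.6, 51.0 and 36.5 TPM in central pulp, 17.1, 20.0 and 25.7 in peripheral pulp, 12.7, 19.8 and 21.1 in sheath and 5.84, 10.0 and 5.89 in papilla. CD3E was at 31.2, 40.8 and 24.6 TPM in central pulp, 10.0, 12.8 and 16.5 in peripheral pulp, 17.7, 13.7 and 20.4 in sheath and 3.97, 6.85 and 5.03 in papilla. For both chains every central pulp library was above every other library, peripheral pulp and sheath overlapped, and papilla was lowest. Central pulp was higher than peripheral pulp by 1.07 ± 0.24 for CD3D and 1.23 ± 0.24 for CD3E (adjusted p = 0.0072 and 0.0033), and neither was called between peripheral pulp and sheath (adjusted p = 0.44 and 0.19). LCK, the kinase that starts T cell receptor signalling, was at 6.06, 4.87 and 5.58 TPM in central pulp, 3.37, 3.28 and 3.72 in peripheral pulp, 2.36, 1.29 and 2.12 in sheath and 1.00, 1.07 and 1.47 in papilla, with every central pulp library again above the rest. ZAP70, which it activates, averaged 4.51 ± 0.993 TPM in central pulp, 1.88 ± 0.941 in peripheral pulp, 2.18 ± 0.315 in sheath and 0.553 ± 0.252 in papilla (mean ± SD, n = 3).

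CD40, a costimulatory receptor of antigen-presenting cells, was at 26.2, 28.8 and 25.9 TPM in central pulp, 22.1, 28.2 and 28.2 in peripheral pulp, 21.7, 16.4 and 18.7 in sheath and 21.1, 20.3 and 20.9 in papilla. The 2 pulp parts overlapped, as did sheath and papilla. Central pulp was higher than sheath by 0.50 ± 0.12 (adjusted p = 0.0045), a call that held under every alternative setting. Its higher level in central pulp than in papilla was smaller (0.36 ± 0.12, adjusted p = 0.026) and was no longer called without central pulp replicate 2 or without any 1 of the 3 papilla libraries, where the adjusted p reached 0.088.

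MRC1, which binds mannose-bearing glycoproteins, ran against the rest. It was at 2.25, 1.42 and 2.19 TPM in central pulp, against 38.5, 38.9 and 43.3 TPM in sheath and 17.4, 20.9 and 22.0 TPM in papilla. In peripheral pulp it was at 0.106 and 0.968 TPM in replicates 2 and 3 and listed at 0 in replicate 1. Every sheath library was above every papilla library, and every papilla library far above every pulp library. Central pulp was lower than sheath (-3.81 ± 0.24, adjusted p = 1.2e-07) and its difference from papilla was -2.84 ± 0.24 (adjusted p = 1.4e-06). Sheath exceeded papilla by 0.97 ± 0.24 (adjusted p = 0.0083), which was not called with a pseudocount of 0.1 (adjusted p = 0.25). As a share of the CSF1R level in the same library, MRC1 was 0.584 to 1.33 percent in central pulp, 0 to 0.610 in peripheral pulp, 58.3 to 66.1 in sheath and 42.7 to 45.6 in papilla.

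MRC1 is also carried by lymphatic and sinusoidal endothelium, and in the first experiment markers of those cells moved with it. Summed over 5 such genes the level was 39.2 to 50.2 TPM in central pulp, 23.9 to 54.7 in peripheral pulp, 565 to 704 in sheath and 222 to 294 in papilla. None of the 5 was at 0 in all libraries of any part. LYVE1, a hyaluronan receptor of lymphatic vessels, averaged 15.9 ± 4.51 TPM in central pulp, 5.11 ± 1.42 in peripheral pulp, 346 ± 49.8 in sheath and 142 ± 26.3 in papilla (mean ± SD, n = 3). Which cells carried these genes here, and whether endothelium had a part in the MRC1 result, was not tested.

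**Figure D2:**
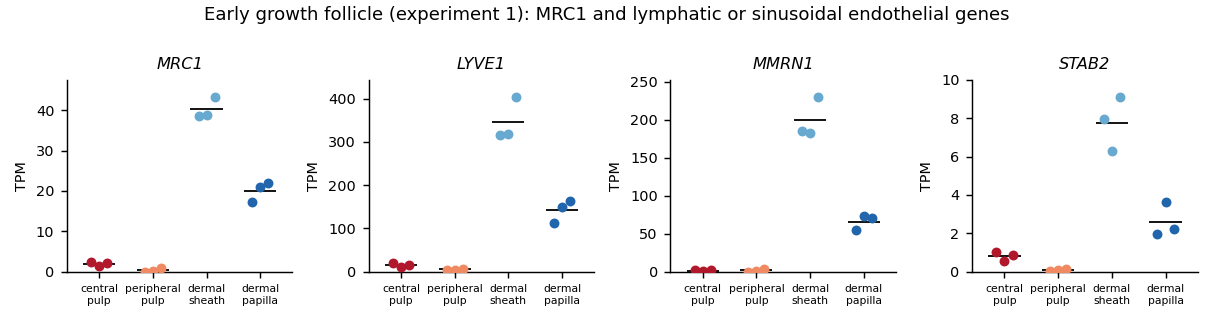
Level in TPM (linear axis from 0) of MRC1 and of the lymphatic or sinusoidal endothelial genes LYVE1, MMRN1 and STAB2 in each library of the first experiment, central pulp to papilla from left to right; points are libraries and bars are group means. MRC1 lay between 38.5 and 43.3 TPM in sheath and between 1.42 and 2.25 TPM in central pulp.

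Counted over the members, central pulp was higher than papilla for 27 of 29 and lower for 1, with LPXN not called. Of all genes tested, 29.2% were called higher and 23.7% lower. The median log2 fold change was 2.50 over the members and 0.06 over all genes. Against sheath, central pulp was again higher for 27 and lower for 1, beside 33.6% and 22.9% of all genes, with medians of 1.69 and 0.11. MRC1 was the lower gene in both.

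Peripheral pulp was higher than papilla for 27 members and lower for 1, beside 35.6% and 21.7% of all genes tested. Against sheath it was higher for 24 and lower for 1, beside 39.1% and 20.2%, and LPXN, CD3D, CD3E and ZAP70 were not called. The members' medians were 1.87 against papilla and 1.21 against sheath, and those of all genes 0.17 and 0.21. MRC1 was the lower gene in both comparisons. Of the higher calls, 24 of 27 against papilla and 19 of 24 against sheath held under every alternative setting that tested the gene. Those lost under at least 1 setting were CD40, SYK and ZAP70 against papilla, and TIMD4, C3AR1, CD40, SYK and LCK against sheath. LCK, among the 24 that held against papilla, did not pass the filter at 5 TPM. For CD40 against papilla the adjusted p reached 0.27.

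Central pulp was higher than peripheral pulp for 16 of 29 members and lower for 0, beside 9.51% and 15.6% of all genes tested. At an unadjusted limma p under 0.05, 22 members were higher and 0 lower. The medians were 0.54 for the members and -0.08 for all genes. By role, the higher genes were 5 of 11 phagocyte genes, 6 of 7 general leukocyte genes, 1 of 4 signalling genes, SPI1 of the 2 transcription factors, and 3 of 4 T cell genes. Of these 16, 10 were called under every alternative setting: LY86, PTPRC, LAPTM5, LCP1, RAC2, LCP2, SPI1, CD3D, CD3E and MRC1. All 10 heterophil genes were also called higher in central than in peripheral pulp. Heterophils share general leukocyte genes such as PTPRC and ITGB2 with the other leukocytes. Their part in the 16 calls, also in those of the phagocyte and signalling genes and SPI1, was not tested.

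Sheath was higher than papilla for 20 of 29 members and lower for 0, beside 16% and 21.7% of all genes tested, and at an unadjusted limma p under 0.05 for 21 and 0. The medians were 0.62 for the members and -0.06 for all genes. The largest difference was that of CD3E (1.55 ± 0.24, adjusted p = 0.00045). LPXN, LY86, MARCO, TIMD4, CYBB, CD40, SYK, IRF8 and LCK were not called. The red cell and keratinocyte sums given above were also higher in every sheath library than in any papilla library, and their part was not tested.

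**Figure D3:**
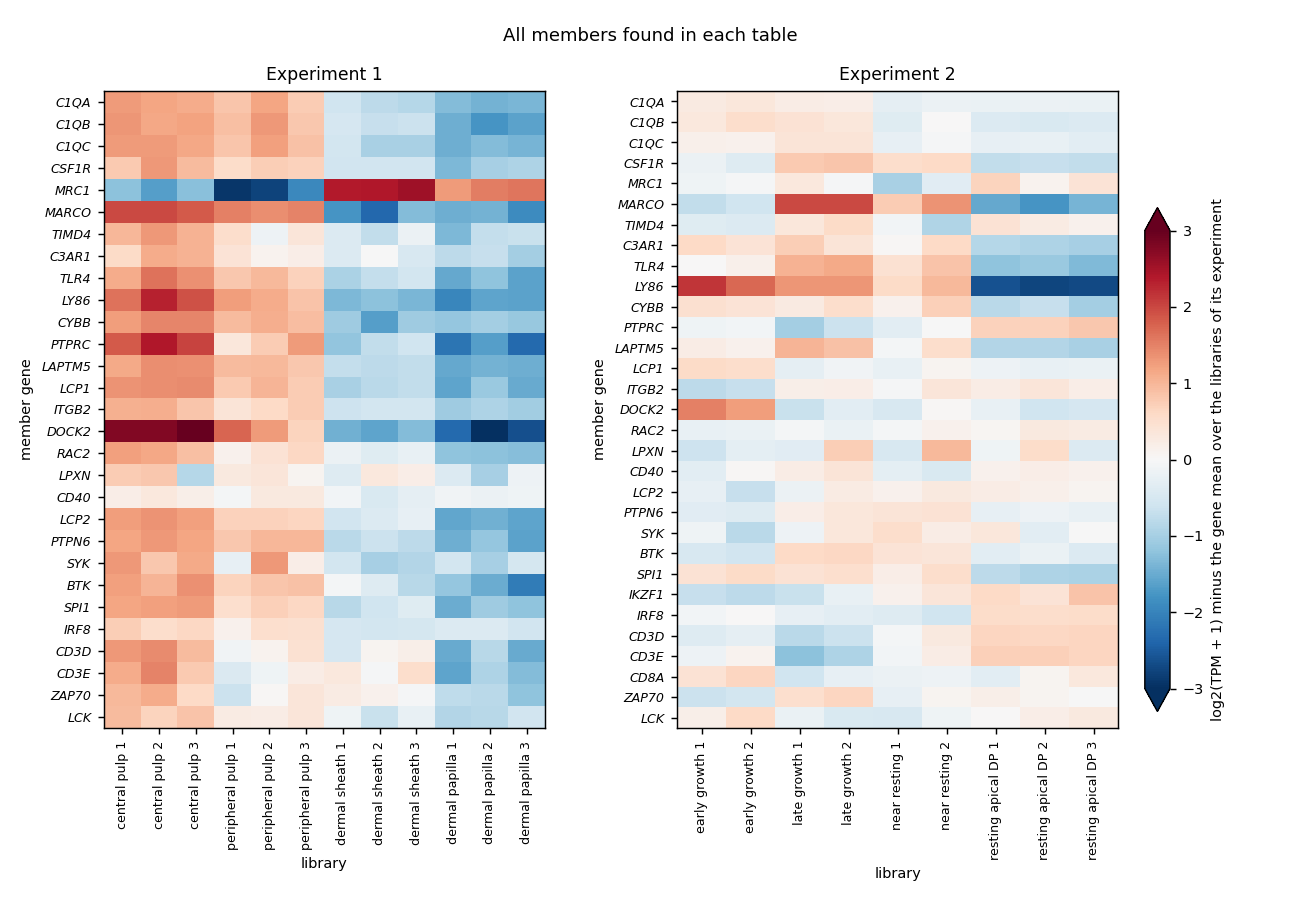
Level of every member found (rows) in every library (columns) of the first and the second experiment, as log2(TPM + 1) minus that gene's mean over the libraries of its experiment; red is above and blue below that mean. Central pulp was the highest group of the first experiment for 28 of 29 members, and the second experiment shows no single order. The share of all genes with central pulp highest was not counted.

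Other genes of the same cells, taken from lists chosen for their known roles, gave these counts in the first experiment. Of 24 further macrophage and dendritic cell genes, 20 were higher in central pulp than in papilla and 1 lower, beside 29.2% and 23.7% of all genes tested. CTSS, a lysosomal protease, CSF2RA, a receptor chain for a myeloid growth factor, and CCR2, a chemokine receptor of monocytes, had the smallest p-values. The lower gene was MERTK, a receptor for dying cells, with 53.0 ± 3.90 TPM in central pulp and 105 ± 1.78 TPM in papilla (mean ± SD, n = 3). XCR1, a chemokine receptor of cross-presenting dendritic cells, led the 11 that were higher in central than in peripheral pulp, beside 9.51% of all genes, at 5.04 ± 0.372 TPM in central pulp and 1.06 ± 0.141 TPM in peripheral pulp, with 1.55 ± 0.19 (adjusted p = 0.00017).

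Of 20 further lymphocyte genes, 17 were higher in central pulp than in papilla and 1 lower, beside 29.2% and 23.7% of all genes tested. Between central and peripheral pulp, 7 were higher in central pulp, beside 9.51% of all genes, and 3 lower, beside 15.6%, so the share of lower ones was near that of all genes. ICOS, a costimulatory receptor of activated T cells, averaged 38.9 ± 16.3 TPM in central pulp and 8.21 ± 2.58 TPM in peripheral pulp (2.06 ± 0.31, adjusted p = 0.00069). The 3 lower ones were the transcription factor genes GATA3, TCF7 and RUNX3, of which GATA3 is also a gene of keratinocytes. Of 15 antigen presentation genes, 9 were higher in central than in peripheral pulp and none was called lower by limma, with 0 lower at an unadjusted p under 0.05, beside 9.51% and 15.6% of all genes. The leading one was B2M, the light chain of class I molecules, at 1973 ± 290.3 TPM in central pulp and 1132 ± 250.0 TPM in peripheral pulp. IL15, a growth factor of lymphocytes, was highest in central pulp among the parts, at 326 ± 69.1 TPM against 32.1 ± 1.19 TPM in papilla (3.28 ± 0.15, adjusted p = 1.2e-08).

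Over the feather cycle the members did not move together. Late growth pulp was higher than early growth pulp for 11 of 31 members and lower for 9, beside 22.4% and 30.8% of all genes tested. The share of lower members was thus near that of all genes. The members' median was 0.22 and that of all genes -0.11. Phagocyte receptors were among the higher genes and CD3 chains, CD8A, PTPRC and DOCK2 among the lower ones. The count fell to 9 higher and 4 lower without late growth replicate 1. Under every alternative setting, 8 of the 11 higher calls held, and 4 of the 9 lower ones, PTPRC, LCP1, DOCK2 and CD3E. By the F test over the 4 groups, 29 of 31 members differed, beside 85% of all genes, and LPXN and SYK did not.

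Vessel and mesenchyme markers also differed between the pulp stages. For all genes tested, the shares were 22.4% higher and 30.8% lower in late than in early growth. Near rest against late growth they were 8.77% and 22.3%. Of 6 blood endothelial genes, 5 were higher and 0 lower in late than in early growth, and 0 were higher and 6 lower near rest than in late growth, by limma and also at an unadjusted p under 0.05. Their summed level was between 321 and 330.4 TPM in early growth, 689.5 and 719.5 in late growth and 299 and 406 near rest. Of 7 mesenchyme genes, 5 were higher and 1 lower in late than in early growth, and 0 were higher and 6 lower near rest than in late growth, again also at an unadjusted p under 0.05. Their sum was between 15917 and 17494 TPM in early growth, 25488 and 26345 in late growth and 13187 and 17879 near rest. None of these 13 markers was at 0 in all libraries of a stage. The part of these cells in the members' differences between stages was not tested.

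Among the phagocyte genes, MARCO had the largest log2 difference between late and early growth. It was at 12.3 and 13.5 TPM in early growth, 86.7 and 85.6 in late growth, 36.3 and 54.8 near rest and 6.55, 5.42 and 7.37 in the resting apical papilla. Early and late growth lay far apart, with a difference of late from early growth of 2.65 ± 0.20 (adjusted p = 3.0e-05). CSF1R was at 114 and 98.5 TPM in early growth, 226 and 231 in late growth, 187 and 197 near rest and 78.0, 80.0 and 77.8 in the resting apical papilla. TLR4 was at 12.6 and 13.8 TPM in early growth, 26.5 and 28.4 in late growth, 17.3 and 23.1 near rest and 4.80, 5.18 and 4.35 in the resting apical papilla. No group overlapped another for any of these genes, with late growth the highest and the resting apical papilla the lowest. Late growth exceeded early growth by 1.10 ± 0.09 for CSF1R and 1.00 ± 0.17 for TLR4 (adjusted p = 3.4e-05 and 0.0016). In the first experiment, in a separate table, both early growth pulp parts were listed above the early growth pulp here. MARCO averaged 75.7 TPM in central and 54.1 in peripheral pulp, against 12.9 here. CSF1R averaged 201 and 155 against 106 TPM, and TLR4 25.1 and 16.8 against 13.2. For MRC1, C3AR1, LY86, PTPRC, LCP1, DOCK2, CD3D, CD3E, ZAP70 and LCK the mean here lay between those of the 2 parts. For all other members found in both tables it was below both. The heterophil sum over 10 genes was 514 to 840.0 TPM in central and 2.04 to 5.53 in peripheral pulp. Over 11 genes it was 7.63 to 18.4 TPM here. These differences between the tables were not tested.

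LY86 ran the other way. It was at 533 and 397 TPM in early growth, 303 and 304 in late growth, 179 and 236 near rest and 18.7, 17.0 and 17.5 in the resting apical papilla. Each stage lay wholly below the one before it, and near rest was lower than early growth (-1.16 ± 0.16, adjusted p = 0.00059). Its call between late and early growth (-0.60 ± 0.16, adjusted p = 0.016) was lost with median-of-ratios scaling and without early growth replicate 1 or either late growth library, where the adjusted p reached 0.099. The C1q genes moved less. C1QA was at 162 and 169 TPM in early growth, 156 and 154 in late growth, 111 and 119.6 near rest and 116, 119 and 117 in the resting apical papilla. C1QC was at 128 and 125 TPM in early growth, 151 and 149.8 in late growth, 97.2 and 113 near rest and 96.0, 98.4 and 92.2 in the resting apical papilla. For C1QA near rest and the resting apical papilla overlapped and lay below both growth stages.

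C1QB was at 101 and 117 TPM in early growth, 109 and 102 in late growth, 62.9 and 80.6 near rest and 60.5, 58.5 and 60.7 in the resting apical papilla. Near rest was called lower than late growth for all 3 C1q genes, with C1QA at -0.42 ± 0.07 (adjusted p = 0.0034), and none of these calls held with median-of-ratios scaling, quantile normalization or a fit on the 2 groups alone. TIMD4 was at 2.05 and 1.95 TPM in early growth, 3.96 and 4.82 in late growth, 2.71 and 1.09 near rest and 4.24, 3.66 and 3.29 in the resting apical papilla. Its near rest libraries differed from each other more than those of the other groups. MRC1 stayed low, at 0.807 and 0.928 TPM in early growth, 1.46 and 0.914 in late growth and 2.12, 1.09 and 1.62 in the resting apical papilla, while near rest it was at 0.544 TPM in replicate 2 and listed at 0 in replicate 1. LYVE1 averaged 5.63 ± 0.791 TPM in the resting apical papilla (mean ± SD, n = 3). The sum over the 5 lymphatic and sinusoidal genes was highest in late growth, at 49.2 to 51.1 TPM. It was 31.9 to 33.5 TPM in early growth, 19.8 to 23.5 near rest and 24.6 to 26.5 in the resting apical papilla. C3AR1 and CYBB were called in no comparison among the pulp stages, with values between 13.5 and 22.5 TPM for C3AR1 and between 11.4 and 17.5 TPM for CYBB.

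The general leukocyte genes split. LAPTM5 was at 252 and 234 TPM in early growth, 435 and 400.0 in late growth, 208 and 311 near rest and 117, 116 and 109 in the resting apical papilla. ITGB2 was at 20.8 and 22.3 TPM in early growth, 41.5 and 42.5 in late growth, 36.0 and 47.5 near rest and 42.9, 48.0 and 42.6 in the resting apical papilla. Both were higher in late than in early growth with no overlap (0.78 ± 0.17 and 0.93 ± 0.14, adjusted p = 0.0054 and 0.00078), and only LAPTM5 of the 2 was lower in the resting apical papilla than in every pulp library. DOCK2 was at 29.7 and 24.9 TPM in early growth, 5.85 and 7.65 in late growth, 6.77 and 10.1 near rest and 8.21, 6.17 and 6.60 in the resting apical papilla. Early growth stood alone above the other groups, which overlapped, and late growth differed from it by -1.87 ± 0.23 (adjusted p = 0.00034).

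LCP1 was at 80.1 and 78.2 TPM in early growth, 44.8 and 49.9 in late growth, 45.6 and 56.5 near rest and 48.3, 46.1 and 46.5 in the resting apical papilla, so early growth again stood above the rest. PTPRC was at 12.4 and 12.8 TPM in early growth, 6.19 and 8.29 in late growth, 10.8 and 13.6 near rest and 22.5, 22.7 and 24.7 in the resting apical papilla. It was lowest in late growth and highest, without overlap, in the resting apical papilla. Late growth differed from early growth by -0.73 ± 0.17 (adjusted p = 0.0075). RAC2 varied little, at 25.8 and 26.5 TPM in early growth, 29.1 and 26.5 in late growth, 29.4 and 33.6 near rest and 31.6, 37.5 and 36.4 in the resting apical papilla. Of the signalling genes, BTK was at 7.10 and 6.66 TPM in early growth, 16.3 and 16.6 in late growth, 14.0 and 13.6 near rest and 8.19, 8.92 and 7.58 in the resting apical papilla, with no overlap between pulp stages. PTPN6 was at 33.9 and 32.7 TPM in early growth, 50.0 and 54.8 in late growth, 56.8 and 58.6 near rest and 36.4, 38.7 and 36.6 in the resting apical papilla. Both were called higher in late than in early growth (1.15 ± 0.14 and 0.64 ± 0.09, adjusted p = 0.00029 and 0.00051). LCP2 was at 12.9 and 9.11 TPM in early growth, 13.6 and 18.5 in late growth, 16.9 and 19.2 near rest and 18.1, 17.4 and 16.4 in the resting apical papilla, and SYK stayed at or below 1.75 TPM in every library.

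**Figure D4:**
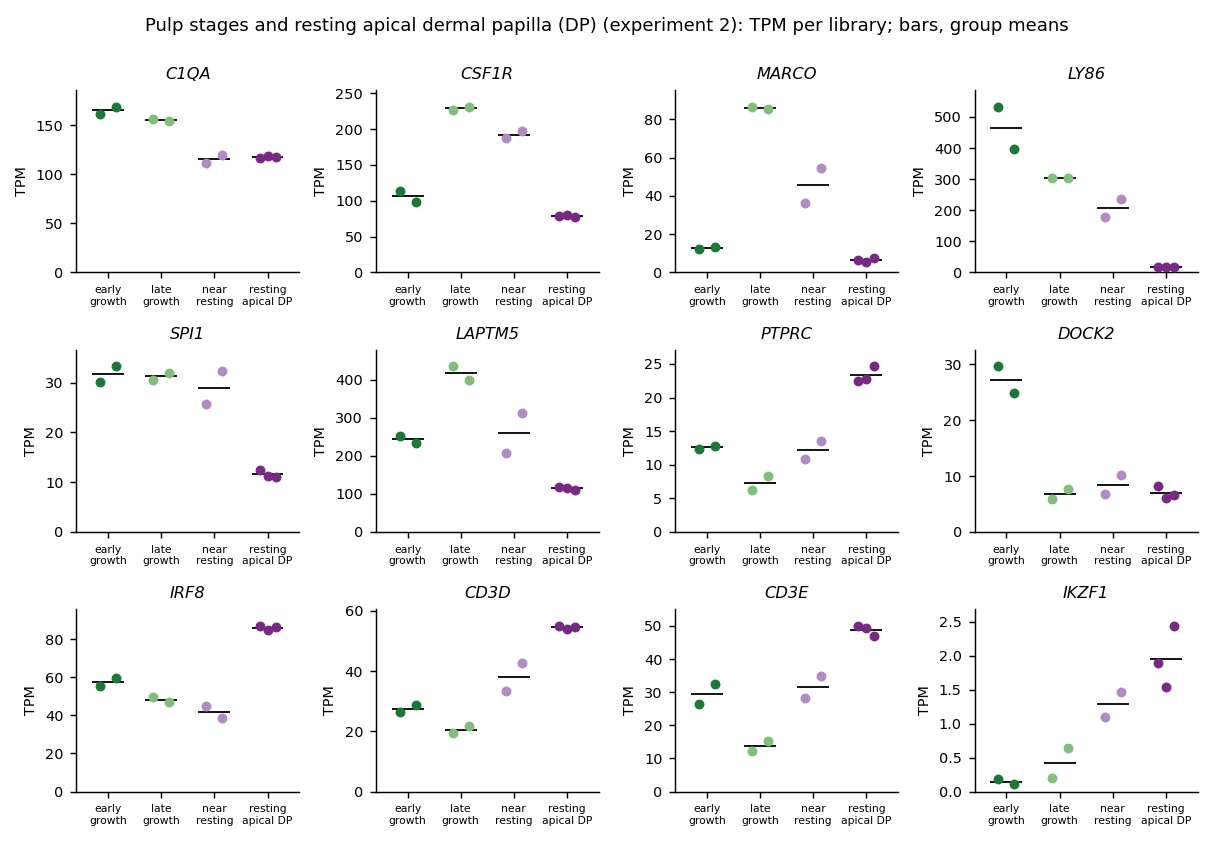
Level in TPM (linear axes from 0) of 12 leukocyte genes in each library of the second experiment, in the order early growth, late growth, near rest and resting apical dermal papilla; points are libraries and bars are group means. MARCO lay at 85.6 and 86.7 TPM in late growth, and CD3D between 54.0 and 55.1 TPM in the resting apical papilla.

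The T cell receptor chains were lowest in late growth and highest in the resting apical papilla. CD3E was at 26.6 and 32.4 TPM in early growth, 12.2 and 15.2 in late growth, 28.2 and 34.8 near rest and 50.0, 49.4 and 46.9 in the resting apical papilla. CD3D was at 26.4 and 28.6 TPM in early growth, 19.3 and 21.8 in late growth, 33.3 and 42.6 near rest and 55.1, 54.0 and 54.6 in the resting apical papilla. For CD3E early growth and near rest overlapped, and for CD3D no groups did. Late growth was lower than early growth for CD3E (-1.06 ± 0.15, adjusted p = 0.00074). The call for CD3D (-0.40 ± 0.13, adjusted p = 0.029) was lost under both other scalings and without either early growth library, late growth replicate 1 or resting apical papilla replicate 3, where the adjusted p reached 0.15. Near rest exceeded late growth by 1.15 ± 0.15 for CD3E and 0.84 ± 0.13 for CD3D (adjusted p = 0.0012 and 0.0021), and both calls held under every alternative setting.

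CD8A, the coreceptor of cytotoxic T cells, was at 2.13 and 2.62 TPM in early growth, 0.513 and 0.951 in late growth, 1.06 and 1.06 near rest and 0.838, 1.43 and 1.89 in the resting apical papilla. The early growth libraries were above all others, and late growth was lower (-0.97 ± 0.25, adjusted p = 0.013), a call lost without early growth replicate 2 or late growth replicate 1 (adjusted p up to 0.08). LCK was at 4.05 and 5.76 TPM in early growth, 2.89 and 2.27 in late growth, 2.18 and 3.06 near rest and 3.49, 4.09 and 4.42 in the resting apical papilla. ZAP70 did not follow the CD3 chains. It was at 3.29 and 3.57 TPM in early growth, 8.51 and 9.43 in late growth, 4.67 and 6.12 near rest and 6.58, 6.10 and 5.63 in the resting apical papilla. Late growth was its highest stage, with no overlap, and exceeded early growth by 1.17 ± 0.18 (adjusted p = 0.0011). In mammals ZAP70 serves natural killer cells as well as T cells.

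Among the transcription factors, SPI1 was even over the pulp stages, at 30.2 and 33.3 TPM in early growth, 30.5 and 32.0 in late growth, 25.6 and 32.3 near rest, and 12.4, 11.2 and 11.1 in the resting apical papilla. IRF8 was at 55.7 and 59.8 TPM in early growth, 49.5 and 46.9 in late growth, 44.8 and 38.6 near rest and 87.0, 85.0 and 86.3 in the resting apical papilla. The resting apical papilla was thus the lowest group for SPI1 and the highest for IRF8, each without overlap. IKZF1 (Ikaros), a factor of lymphocyte development, was at 0.178 and 0.106 TPM in early growth, 0.204 and 0.643 in late growth, 1.09 and 1.47 near rest and 1.89, 1.53 and 2.44 in the resting apical papilla, and no 2 of the 4 groups overlapped. CD40 was at 14.6 and 18.7 TPM in early growth, 21.6 and 24.0 in late growth, 14.6 and 13.0 near rest and 20.1, 20.9 and 19.9 in the resting apical papilla, with late growth highest.

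Near rest was higher than late growth for 3 of 31 members and lower for 9, beside 8.77% and 22.3% of all genes tested. The share of higher members was thus near that of all genes. The medians were -0.12 for the members and -0.16 for all genes. The 3 higher genes were CD3D, CD3E and PTPRC, and none of the 9 lower calls held under every alternative. Under median-of-ratios scaling the split was 5 higher and 2 lower, under quantile normalization 3 and 2, and without near rest replicate 1, the library rich in keratinocyte RNA, it was 3 and 8. The calls over all genes, 1308 higher and 3333 lower, moved as well. They were 2058 and 2025 under median-of-ratios scaling, and 1724 and 2295 under quantile normalization. In all, 5 members were called without late growth replicate 1 and 6 without late growth replicate 2. PTPRC (0.68 ± 0.17, adjusted p = 0.019) was not called without late growth replicate 1, without near rest replicate 2 or in a fit on the 2 groups alone (adjusted p up to 0.14).

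Near rest was higher than early growth for 10 members and lower for 9, beside 18.7% and 37.3% of all genes, with medians of -0.02 and -0.23. With median-of-ratios scaling the split was 12 and 2, and with quantile normalization 12 and 4. The calls over all genes moved too, from 2785 higher and 5558 lower. They were 4284 and 3993 with median-of-ratios scaling, and 3806 and 4535 with quantile normalization. CSF1R, MARCO, ITGB2, PTPN6 and BTK were called higher and LY86 and DOCK2 lower under every alternative. IKZF1 was called higher under every alternative that tested it, but it did not pass the filter at 5 TPM. For MARCO the difference was 1.72 ± 0.20 and for DOCK2 -1.60 ± 0.23 (adjusted p = 0.00022 and 0.00067). Summed keratinocyte genes were at 2814 to 13562 TPM near rest, 555 to 564 in late growth and 1244 to 1549 in early growth, and summed red cell genes at 262 to 537 TPM near rest, 1001 to 1046 in late growth and 1398 to 1634 in early growth. Their part in these differences was not tested.

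The resting apical papilla was higher than near resting pulp for 7 of 31 members and lower for 10, beside 40.9% and 21.6% of all genes tested. The medians were -0.11 for the members and 0.25 for all genes. Phagocyte genes made up 6 of the 10 lower ones. LY86 (-3.46 ± 0.15), MARCO (-2.62 ± 0.18), TLR4 (-1.86 ± 0.15) and CSF1R (-1.28 ± 0.08) had adjusted p = 1.4e-06, 1.4e-05, 3.2e-05 and 7.6e-06. CYBB, C3AR1, SPI1, LAPTM5, PTPN6 and BTK were lower too, and all 10 lower calls held under every alternative. The higher genes were IRF8 (1.03 ± 0.08, adjusted p = 3.1e-05), PTPRC (0.89 ± 0.16, adjusted p = 0.0015), CD3D, CD3E, CD40, MRC1 and TIMD4, of which IRF8 and PTPRC were called under every alternative. MRC1 was not called without near rest replicate 1, and TIMD4 was not called without near rest replicate 2 or without any 1 library of the resting apical papilla. With median-of-ratios scaling, 3 were higher and 14 lower, and CD3D and CD3E were then not called (adjusted p up to 0.18 and 0.09). Of all genes, 4418 were then called higher and 4555 lower, in place of 6095 and 3221.

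Against early growth pulp, the resting apical papilla was higher for 9 members and lower for 13, beside 32.1% and 33.6% of all genes, with medians of 0.16 and 0.00. The share of higher members was thus near that of all genes. This comparison shares its papilla libraries with the previous one. LY86 had the largest difference (-4.62 ± 0.15, adjusted p = 2.7e-07), and 9 of the 11 phagocyte genes were lower and 0 higher by limma, with 1 higher at an unadjusted p under 0.05. CD3D (0.96 ± 0.12), CD3E (0.71 ± 0.14), PTPRC (0.84 ± 0.16), ITGB2 (1.01 ± 0.12), IRF8 (0.57 ± 0.08) and IKZF1 (1.36 ± 0.21) were higher, with ZAP70, RAC2 and LCP2. All 13 lower calls and 7 of the 9 higher ones held under every alternative that tested the gene. IKZF1, among the 7, did not pass the filter at 5 TPM. RAC2 and LCP2 were not called with the replicate block, nor without early growth replicate 1 for RAC2 and early growth replicate 2 for LCP2. Summed red cell genes were at 3097 to 6244 TPM in the resting apical papilla and summed heterophil genes at 31.2 to 64.1 TPM, against 1398 to 1634 and 7.63 to 18.4 TPM in early growth pulp, and AvBD2 and the cathelicidins were listed at 0 in both. The summed mesenchyme markers were at 4096 to 4148 TPM in the resting apical papilla and 15917 to 17494 TPM in early growth pulp. Summed thrombocyte genes were at 176 to 201 TPM in the resting apical papilla and 65.1 to 71.6 TPM in early growth pulp. The part of these cells in the differences was not tested.

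Further lymphocyte genes, 26 of them tested in the second experiment, gave 4 higher and 12 lower in late than in early growth, beside 22.4% and 30.8% of all genes. Near rest against late growth gave 8 higher and 0 lower (0 lower also at an unadjusted limma p under 0.05), beside 8.77% and 22.3% of all genes. The resting apical papilla against near rest gave 13 higher and 6 lower, beside 40.9% and 21.6% of all genes, so both shares were near those of all genes. JCHAIN, the joining chain of IgM and IgA made by plasma cells, averaged 55.3 ± 2.56 TPM in early growth, 3.93 ± 0.566 in late growth, 81.8 ± 14.2 near rest (mean ± SD, n = 2) and 503 ± 36.6 TPM in the resting apical papilla (n = 3). It was lowest in late growth and far highest in the resting apical papilla, which exceeded near resting pulp by 2.61 ± 0.13 (adjusted p = 2.3e-06). EOMES, a transcription factor of cytotoxic and natural killer cells, averaged 70.3 ± 3.59 TPM in early growth and 0.320 ± 0.0698 TPM in late growth. Late growth was lower, with a log2 fold change of -5.75 ± 0.18 (adjusted p = 5.3e-07). The early growth mean of EOMES was above those of CD3D and CD3E, 27.5 and 29.5 TPM. Which cells carried EOMES was not tested. Of 25 further macrophage and dendritic cell genes, 6 were higher and 10 lower in the resting apical papilla than near rest, beside 40.9% and 21.6% of all genes. MERTK led the higher ones, at 136 ± 4.94 TPM in the resting apical papilla (n = 3) and 43.2 ± 2.23 TPM near rest (n = 2).

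Ratios of members within a library do not change when the whole library is multiplied by a factor. The CD3D and CD3E levels together, as a percent of the summed C1q genes, were 13.6 and 14.9 in the early growth libraries, 7.58 and 9.11 in late growth, 22.7 and 24.7 near rest and 38.5, 37.5 and 37.5 in the resting apical papilla. PTPRC as a percent of LAPTM5 was 4.91 and 5.47 in early growth, 1.42 and 2.07 in late growth, 5.19 and 4.36 near rest and 19.2, 19.5 and 22.5 in the resting apical papilla. IRF8 as a percent of SPI1 was 184 and 179.7 in early growth, 162 and 146 in late growth, 175 and 119.7 near rest and 702, 757 and 778 in the resting apical papilla. For all 3 ratios the resting apical papilla was above every pulp library, and for the first 2 late growth was below every other library. In the first experiment, CD3 as a percent of C1q was 9.91 to 14.3 in central pulp, 5.03 to 8.66 in peripheral pulp, 16.4 to 27.1 in sheath and 9.61 to 17.1 in papilla. These ratios are descriptions and were not tested.

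**Figure D5:**
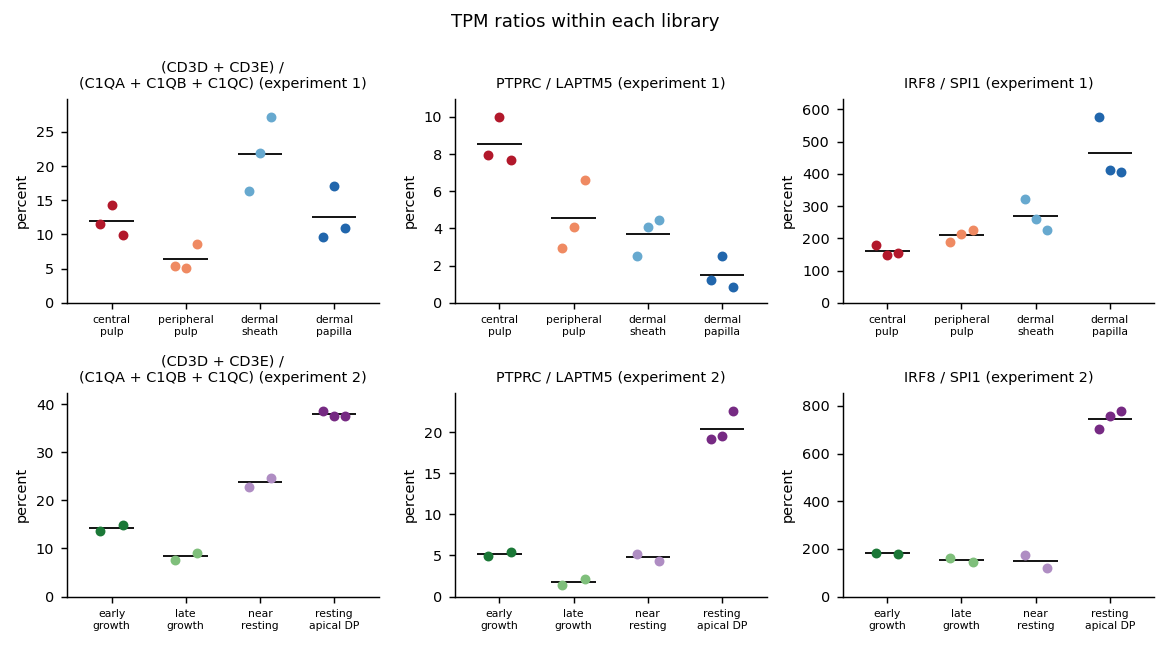
Ratios of leukocyte genes within each library, in percent on axes from 0, for both experiments; points are libraries and bars are group means. CD3D and CD3E together were between 37.5 and 38.5 percent of the summed C1q genes in the resting apical papilla and between 7.58 and 9.11 percent in late growth pulp.

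The papilla of the growing follicle and the apical papilla at rest stand in separate tables, so their levels are set side by side without a test. They differ in the region named as well as in stage, and these cannot be told apart. PTPRC was at 22.5, 22.7 and 24.7 TPM in the resting apical papilla, and 0.580, 1.31 and 0.438 TPM in the papilla in early growth. MRC1 was at 2.12, 1.09 and 1.62 TPM in the resting apical papilla, and 17.4, 20.9 and 22.0 TPM in the papilla in early growth. CD3D was at 55.1, 54.0 and 54.6 TPM in the resting apical papilla, and 5.84, 10.0 and 5.89 TPM in the papilla in early growth. PTPRC and CD3D were thus listed higher, and MRC1 lower, in every library of the resting apical papilla. Most phagocyte genes were also listed higher in the resting apical papilla. C1QA averaged 117 TPM in the resting apical papilla and 39.7 in the papilla in early growth, and CSF1R 78.6 and 46.0. LY86 was listed lower in the resting apical papilla, at 17.8 against 38.3 TPM, and CD40 and C3AR1 slightly lower. All other members found in both tables had a higher mean in the resting apical papilla. Summed mesenchyme markers were at 4096 to 4148 TPM there and 26470 to 29435 TPM in the papilla in early growth. The lymphatic and sinusoidal sum was 24.6 to 26.5 and 222 to 294 TPM. The part of these cells was not tested.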

How the data were processed

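The authors deposited 1 table per experiment with TPM values per gene and library. The submitters' processing notes name Cuffdiff 2.2.1.3 and Cufflinks 2.2.1.2 beside TopHat2 2.1.1 and give no role for any. Per the labels, libraries of total RNA (TRIzol) were prepared with a TruSeq kit. Neither genome build nor annotation is given in the sources used here. No coordinates or sequences are printed. TPM divides by a library's own total, so abundant transcripts lower all others, and an exact 0 is reported as listed at 0.

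Groups and replicate numbers came from the labels. Genes were matched by symbol, with 6 entries of the added lists matched through an older or newer symbol in each experiment. Genes with at least 1 TPM in at least 3 libraries (first experiment) or 2 (second) were kept, which left 13804 and 14915 genes. limma 3.58.1 in R 4.3.3 was run on log2(TPM + 1), with a pseudocount of 1, group means over all libraries of an experiment, trend and robust variances, and residual degrees of freedom of 8 and 5. Tests were two-sided and were tested on simulated data. The groups were compared in 6 and 5 pairs. Comparisons within an experiment share libraries and are not independent of each other.

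The members and all gene lists were chosen with earlier results of these data known. Library values are given for the leading members of each role by mean TPM, for PTPRC, CD3E, CD8A, MRC1, MARCO and TIMD4, and for members called against the majority of a comparison, with further values chosen after they were seen. Genes outside the list are those with the smallest p-values in their list, and LYVE1 was chosen after its values were seen. The log2 difference of replicate libraries had an SD of 0.32 to 0.64 by group, so none was a near copy of another. The settings varied were the pseudocount (0.1), the filter (none or 5 TPM), the scaling (median-of-ratios or quantile), and then plain variances, a replicate block, a fit on the groups compared and leaving out each library in turn.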

Additional observations from a re-analysis of the deposited data

How the results depend on the processing

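The count of members called stayed within 1.5 times its value under every alternative in the 6 comparisons of the first experiment and in both comparisons of the resting apical papilla. Leaving out each library in turn gave 11 to 18 for central against peripheral pulp (16 with all libraries), 27 to 28 and 27 to 29 for central pulp against sheath and papilla, 23 to 25 and 25 to 28 for peripheral pulp against the same, 19 to 21 for sheath against papilla, 16 to 19 and 21 to 23 for the resting apical papilla against near rest and early growth, and 28 to 29 and 23 to 28 for the F tests. Late against early growth gave 13 to 20 in place of 20, the lowest without late growth replicate 1. Near rest against late growth gave 12 with all libraries, 5 to 13 with 1 library left out, 7 with median-of-ratios scaling, 5 with quantile normalization and 2 in a fit on the 2 groups alone. Near rest against early growth gave 19, 13 to 18 with 1 library left out, and 11 in a fit on the 2 groups alone. The split of late against early growth was 11 higher and 9 lower, 12 and 5 with median-of-ratios scaling and 10 and 7 with quantile normalization. That of the resting apical papilla against near rest was 7 and 10, 3 and 14 with median-of-ratios scaling and 6 and 11 with quantile normalization. The calls over all genes moved with the scaling too. For late against early growth they were 3347 higher and 4599 lower, and 3922 and 4118 with median-of-ratios scaling. Median-of-ratios scaling put the median of all genes for near rest against early growth at 0.02, in place of -0.23, and that for the resting apical papilla against near rest at 0.00, in place of 0.25. Under it 2 of the 336 results on single genes changed sign: C1QC near rest against early growth became 0.021 (adjusted p = 0.89), and C1QA in the resting apical papilla against near rest became -0.26 (adjusted p = 0.024). The causes were not tested. Of the 336, 54 lost and 31 gained a call under at least 1 alternative, all of them members. Whether the replicate numbers pair the libraries was not settled. In their deviations from the group means, same-numbered libraries of the first experiment correlated between -0.085 and 0.143, and other-numbered ones between -0.118 and 0.111. For 9 of 12 libraries the mean correlation with same-numbered libraries exceeded that with other-numbered ones. In the second experiment same-numbered libraries correlated between -0.040 and 0.113, and this mean was the higher one for 4 of 9. The deviations of 2 libraries in a group mirror each other, so the second experiment cannot show whether numbers pair. With the replicate number as a block the counts were 18, 28, 28, 25, 27 and 20 in the order given for the first experiment, and 15 for late against early growth, 9 and 15 for near rest against late and early growth, and 16 and 21 for the resting apical papilla against near rest and early growth. Without depth, the precision of members near 1 TPM, such as CD8A, IKZF1, LPXN and SYK, is unknown.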

Other observations

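Antigen presentation genes also differed between pulp stages. Of 15 antigen presentation genes, 10 were higher in late than in early growth and 0 lower by limma, with 11 and 0 at an unadjusted p under 0.05, beside 22.4% and 30.8% of all genes tested. BLB1 and BLB2, the class II beta chains, were among those with the smallest p-values, and as near-identical copies they can share reads, so their single values are uncertain. BLB2 averaged 549 ± 23.5 TPM in late growth and 341 ± 28.2 TPM in early growth (mean ± SD, n = 2). Near rest, 8 of the 15 were lower than in late growth and 0 higher, with 9 and 0 at an unadjusted p under 0.05, beside 22.3% lower and 8.77% higher of all genes.

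Of 13 ligand and complement genes, 4 were higher and 3 lower in late than in early growth, beside 22.4% and 30.8% of all genes tested. C1S, a protease that acts with C1q, had the smallest p-value among the 4 higher ones, at 495 ± 5.26 TPM in late growth and 30.8 ± 3.26 TPM in early growth (3.97 ± 0.16, adjusted p = 1.4e-06). IL15, which sustains natural killer and memory T cells, led the 3 lower ones, at 30.4 ± 0.196 TPM in late growth and 239.6 ± 36.2 TPM in early growth (-2.93 ± 0.21, adjusted p = 2.2e-05). IL7, a growth factor of lymphocytes, averaged 6.13 ± 0.814 TPM in the resting apical papilla (mean ± SD, n = 3) and was listed at 0 in all 6 pulp libraries of that experiment.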
